A study of Mus musculus with 4 samples.

Results

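Ly49-expressing T cells are a small population of the lymphocytes that infiltrated the murine glioma CT2a, and they are described here across all genes, against the other T cells and the NK cells of the same tumors, and between genotypes. CT2a is a mouse high-grade glioma line, of which 50000 cells were implanted into the brains of female C57Bl/6 mice 8 to 12 weeks old. CD45+ leukocytes were taken from the tumor-bearing hemispheres 14 days later and profiled by droplet single-cell RNA-seq. The WT group held 4 wild-type mice and the CaMKK2 KO group 4 mice that lacked Camkk2 (calcium/calmodulin-dependent kinase kinase 2) in every tissue from birth, so that the implanted tumor cells carried the gene in both groups and the host in the WT group only. Each mouse was labelled with its own hashtag antibody, and the mice of a genotype shared 1 library, so that genotype and library cannot be told apart. The cells of a mouse gave between 13347367 UMIs (CaMKK2 KO mouse 4) and 24685526 (CaMKK2 KO mouse 3). A barcode was called a Ly49+ T cell when it held at least 500 genes and under 10% mitochondrial UMIs (unique molecular identifiers, the counted molecules), and met further limits on UMIs. These were at least 2 UMIs of Cd3d, Cd3e and Trac together, at least 2 of Klra1, Klra6 and Klra7 together, none of Ncr1 or Foxp3, and fewer than 3 UMIs of Gzmc and Gzmf and 30 of the C1q genes. Of 12866 barcodes that passed the first filters, 68 met the definition, 43 of them WT and 25 CaMKK2 KO. After 4 hashtag doublets were left out, 64 cells of the 11705 assigned to 1 mouse remained, 40 in the WT group and 24 in the CaMKK2 KO group, beside 1158 other T cells and 1349 NK cells. The other T cells met every condition but that on the Klra genes, of which they held at most 1 UMI. NK cells held an Ncr1 UMI, fewer than 2 UMIs of Cd3d, Cd3e and Trac, no Foxp3 UMI and fewer than 30 of the C1q genes.

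Ly49 receptors, encoded by the Klra gene cluster of mouse chromosome 6, are lectin-like proteins that recognize MHC class I and its relatives. Most of them inhibit the cell through tyrosine-based motifs, and a few activate it through the adaptor DAP12, encoded by Tyrobp. They are best known from NK cells, where each cell expresses its own subset of the family. Small fractions of T cells also carry them, chiefly CD8 T cells of memory or regulatory type, NKT cells and some gamma-delta T cells.

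The definition used Klra1, Klra6 and Klra7, so their levels are given as a description. The 64 cells held 2 to 50 UMIs of the 3 genes (median 6). At the threshold, 8 cells held exactly 2 UMIs, and 26 T cells just outside it held 1. Klra7, which encodes Ly49G, was detected in 51 of 64 cells, Klra1 (Ly49A) in 31 and Klra6 (Ly49F) in 31. The combinations varied from cell to cell. Klra7 was the only one of the 3 in 13 cells, Klra1 in 4 and Klra6 in 6, whereas 16 cells held Klra1 and Klra7, 14 held Klra6 and Klra7, 3 held Klra1 and Klra6, and 8 held all 3. None of 332 B cells held 2 such UMIs, which allows a share of up to 0.904%. Their median depth was 4270 UMIs, below that of the members. Among 3428 macrophages 2 did (0.0583%), at a median depth of 16108 UMIs against 9190.5 in the members. In NK cells, where the receptors are normally expressed, the share was 48%. The 3 genes can be told apart by these reads: in the last 500 bases of their transcripts no stretch of 91 bases recurs in another Klra gene, whereas 8.05% of such stretches of Klra3 and 1.46% of Klra9 do, so the counts of those genes are less certain. A further 84 barcodes held T-cell and Klra UMIs but also Ncr1 and were not counted as members.

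In CPM, the UMIs of a gene per 1000000 UMIs of the population, Klra7 stood at 386, 598, 448 and 398 in the Ly49+ T cells of WT mice 1 to 4 and at 765, 579.6, 84.3 and 310.2 in those of CaMKK2 KO mice 1 to 4. The genotypes overlapped, and CaMKK2 KO mouse 3, where 1 barcode described below held most of the UMIs, was lowest. Klra6 stood at 35.9, 209, 142 and 102 in the WT mice and 112, 243, 32.1 and 47.7 in the CaMKK2 KO mice, while the NK cells of the same mice ranged from 1.16 to 7.99. The receptors that the definition did not use differed in kind between the populations. Klra8, which encodes the activating Ly49H, was not detected in any Ly49+ T cell, but was found in 42% of NK cells, at 145 to 275 CPM. In the 7 mice with at least 5 Ly49+ T cells this is at least 64.6-fold lower, taking 3 UMIs over the 7 mice as the limit of detection. Klra4, which encodes the activating Ly49D, was detected in 3 of 64 Ly49+ T cells and in 34.9% of NK cells, and 32 of its 33 UMIs in Ly49+ T cells were in 2 barcodes that stand apart, in WT mouse 3 and CaMKK2 KO mouse 3, described below with the markers of other cells. Klra9 was found in 11 of 64 members and 43.4% of NK cells, Klra3 in 14 of 64 and 24.3%, and Klra5 in 10 of 64 and 5.41%. Because members were selected on paralogs of these genes, no test was applied to them.

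TCF-1, the product of Tcf7, is known to act on Ly49 genes in NK cells, and Tcf7 was high in the members as described below. The 250 bases before the annotated starts of the 3 genes of the definition are therefore shown (RefSeq, GRCm38.p6, minus strand, 5′ to 3′), with the TCF core CTTTG, or CAAAG on the other strand, in capitals.
Klra1, chr6:130386875-130387124: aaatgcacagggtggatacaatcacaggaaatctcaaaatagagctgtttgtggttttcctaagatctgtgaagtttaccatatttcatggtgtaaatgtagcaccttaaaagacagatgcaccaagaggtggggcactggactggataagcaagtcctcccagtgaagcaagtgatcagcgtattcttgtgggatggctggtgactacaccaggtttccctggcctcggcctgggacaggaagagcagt
Klra6, chr6:130026955-130027204: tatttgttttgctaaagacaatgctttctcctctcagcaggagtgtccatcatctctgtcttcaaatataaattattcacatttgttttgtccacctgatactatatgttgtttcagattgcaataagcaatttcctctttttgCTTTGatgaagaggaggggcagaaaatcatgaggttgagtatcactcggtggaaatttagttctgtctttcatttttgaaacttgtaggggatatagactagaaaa
Klra7, chr6:130233323-130233572: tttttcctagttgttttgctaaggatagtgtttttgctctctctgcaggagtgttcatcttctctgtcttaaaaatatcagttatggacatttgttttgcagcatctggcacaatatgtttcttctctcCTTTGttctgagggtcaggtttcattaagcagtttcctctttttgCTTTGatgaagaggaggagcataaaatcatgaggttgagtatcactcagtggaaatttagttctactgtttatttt
The core was found once upstream of Klra6, at 2 places upstream of Klra7 and nowhere in the window of Klra1. Klra6 and Klra7 share a run of 30 identical bases around it, tttcctctttttgCTTTGatgaagaggagg, whereas the longest run that either shares with Klra1 is 8 bases. The core is common: 48.6% of all 32851 promoter windows of this length hold it on one strand or the other. A match describes the sequence and does not show that the factor binds there. The lack of a match in the window of Klra1 says nothing of sequence outside it or of other starts, which were not read.

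The name of the population was checked against markers. Klrd1 (CD94), which pairs with NKG2 receptors, was found in 63 of 64 cells, against 64% of other T cells and 95.2% of NK cells, and Il2rb, the beta chain of the interleukin-2 and interleukin-15 receptors, in 63 of 64, against 86.3% and 95.2%. Of the constant regions of the T-cell receptor beta chain, Trbc2 was found in 64 of 64 members, against 92.2% and 39.1%, and Trbc1 in 41 of 64, against 57.9% and 89.3%. Klrd1, Il2rb and Trbc1 were thus found in most NK cells too. Of the proposed further markers, Cd7 was found in 48 of 64 members, against 18% of other T cells and 46% of NK cells. Klrb1a was found in 27 of 64, against 1.38% and 48.6%, and Atp1b1, a sodium pump subunit, in 36 of 64, against 2.42% and 58%. Macrophage RNA was present at low levels. The 8 macrophage genes together stood at 762, 668, 6255 and 807 CPM in the members of WT mice 1 to 4 and at 574, 348, 446 and 382 in those of CaMKK2 KO mice 1 to 4, with Apoe or Cst3 the most abundant. WT mouse 3 was far above the rest through Cst3. In other T cells the sum ranged from 1070.1 to 2695 CPM. There were 2 exceptions among the 64, each with more UMIs of another cell type than of T-cell markers. One, in CaMKK2 KO mouse 3, held 209483 UMIs and 10072 genes, with 6 UMIs of T-cell markers beside 148 of Sparc, a matrix protein gene taken here as a marker of glia and glioma, 94 of macrophage markers and 71 of mature dendritic cell genes, and it supplied most of that mouse's UMIs. Gfap and Olig1 were at 0 in the members of every mouse. The cells had been sorted on CD45, and the source of the Sparc UMIs was not tested. The other, in WT mouse 3, held 27192 UMIs, with 13 of T-cell markers beside 263 of the mature dendritic cell genes Ccl22, Ccl17, Fscn1 and Ccr7 and 508 of macrophage markers. Both barcodes met the definition and were kept, and the comparisons were also made without them. Of the 42 barcode sequences that occur in both libraries, 1 was a member.

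**Figure D1:**
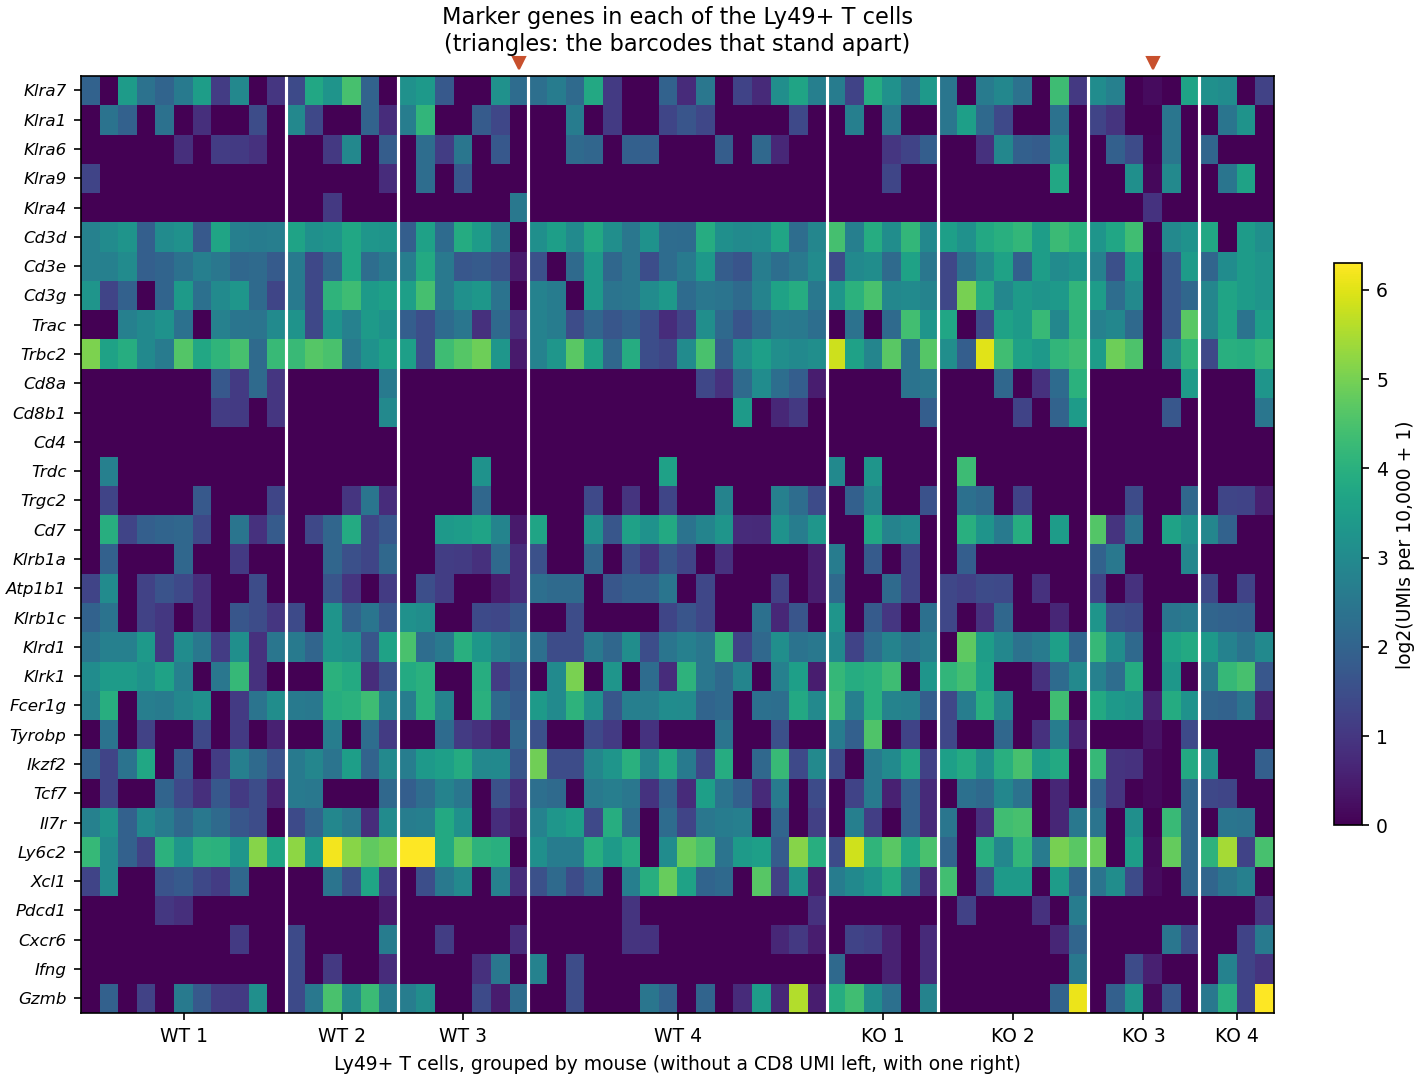
Expression of 32 marker genes (rows) in each of the 64 Ly49+ T cells (columns), as log2 of UMIs per 10000 plus 1, with mice separated by white lines and, within a mouse, cells with a CD8 UMI at the right. The T-cell receptor genes are filled in nearly every column, Cd4 is empty in all 64, Cd8a or Cd8b1 is filled in 22, and triangles mark the 2 barcodes that stand apart.

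The coreceptors were not part of the definition. None of the 64 Ly49+ T cells held a Cd4 UMI, whereas 29.7% of other T cells did. This allows a share of cells with a UMI of up to 4.69% and sets no limit on cells with Cd4 RNA below detection. A UMI of Cd8a or Cd8b1 was found in 22 cells, so that 42 cells held neither coreceptor. Cd8a was seen without Cd8b1 in 9 of the 22. NK cells, which should lack CD8, held a Cd8a UMI in 3.26% of cells and a Cd8b1 UMI in 2.82%, at a median depth of 8265 UMIs. Trac, the T-cell receptor alpha constant region and a gene of the definition, was detected in 58 of 64 members and Trdc, its delta counterpart, in 6. In 3 cells, Trdc and the gamma constant genes together reached 20 UMIs, and 1 of these had no Trac UMI. Zbtb16, which encodes the NKT factor PLZF, was detected in 2 of 64 cells. Trac without Trdc, the pattern of alpha-beta T cells, was found in 56 of the 64, a count that the definition favours.

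The share of Ly49+ T cells with a CD8 UMI was 36.4, 16.7, 0 and 43.8% in WT mice 1 to 4 and 33.3, 62.5, 33.3 and 25% in CaMKK2 KO mice 1 to 4. Among the other T cells of the same mice it was 57.9, 73.1, 81.2 and 71.2% and 60.8, 27.1, 54.2 and 35.9%. Ly49+ T cells were the lower in 7 of the 8 mice, the exception being CaMKK2 KO mouse 2. Over the 7 mice with at least 5 Ly49+ T cells the means were 32.3% ± 19.8 (SD, n = 7) and 60.8% ± 17.6, a difference of -28.5 percentage points that did not pass an exact two-sided paired permutation test (p = 0.0938, n = 7). With every cell thinned to 2000 UMIs, which removes differences in depth, the means were 14.6% and 56.1%, and Ly49+ T cells were the lower in all 7 of these mice (exact permutation p = 0.0156, the smallest that 7 pairs can give). Without CaMKK2 KO mouse 2, the 1 mouse that went the other way, the unthinned difference was -39.2 points and passed (exact permutation p = 0.0312, n = 6, the smallest that 6 pairs can give), whereas without any 1 of the other 6 it did not (exact permutation p = 0.156 to 0.188, n = 6). Between genotypes, the share was 24.2% ± 19.8 (SD, n = 4) for WT and 43.1% ± 16.8 (SD, n = 3) for CaMKK2 KO, which did not pass (exact two-sided permutation p = 0.343). A comparison of 4 mice with 3 cannot go below 0.0571.

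The split by CD8 rests on the detection of a few molecules, so the values of members with and without a CD8 UMI are given with no test. Ikzf2 (Helios), a transcription factor of regulatory and innate-like T cells, was found in 19 of 22 CD8+ members and 37 of 42 of the others. Ly6c2, a surface protein of memory CD8 T cells, was found in 22 of 22 and 38 of 42, at medians of 14.9 and 14.2 UMIs per 10000. Klra6 was found in 14 of 22 and 17 of 42, and Klra1 in 7 of 22 and 24 of 42. Granzyme B was uneven: the median was 1.14 UMIs per 10000 in CD8+ members and 1.72 in the others, while the highest cells reached 77.6 and 21.6. The 3 cells with the most Gzmb held 386 of its 608 UMIs (63.5%). Proliferation was also limited to a few cells, with at least 5 UMIs of Mki67 in 6 of the 64.

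The abundance of the population was compared between genotypes. Ly49+ T cells made up 36.7, 5.26, 3.63 and 10.3% of T cells in WT mice 1 to 4 and 3.3, 4.08, 2.73 and 3.03% in CaMKK2 KO mice 1 to 4. WT mice 1 and 4 were the highest, and WT mouse 3 lay within the range of the CaMKK2 KO mice, so the groups overlapped. Mean shares were 14% ± 15.4 (SD, n = 4) and 3.28% ± 0.58 (SD, n = 4), which did not pass an exact two-sided permutation test of the mice (p = 0.0571). The value of WT mouse 1 was 11 of 30 T cells (95% exact binomial interval 19.9 to 56.1%), the fewest T cells of any mouse. Without it, the difference shrank from -10.7 to -3.12 percentage points (exact permutation p = 0.114). With at least 3 Klra UMIs required instead of 2, the difference was -7.94 points and passed (exact permutation p = 0.0286, the smallest that 4 mice against 4 can give). With cells thinned to 2000 UMIs it was -5.08 points (exact permutation p = 0.171). As a share of all cells, the members were 0.989, 0.414, 0.476 and 1.04% in the WT mice and 0.426, 0.445, 0.356 and 0.323% in the CaMKK2 KO mice, with means of 0.729% ± 0.33 (SD, n = 4) and 0.387% ± 0.0577 (SD, n = 4; exact permutation p = 0.0857). After thinning to 2000 UMIs this difference shrank from -0.342 to -0.108 points (exact permutation p = 0.314). Median depth per member was 10057 UMIs in WT and 7292 in CaMKK2 KO, and its part in the unthinned difference was not tested otherwise. A share of cells rests on the other cells too, so a lower share and more T cells of other kinds cannot be told apart. Intervals cover counting error only.

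**Figure D2:**
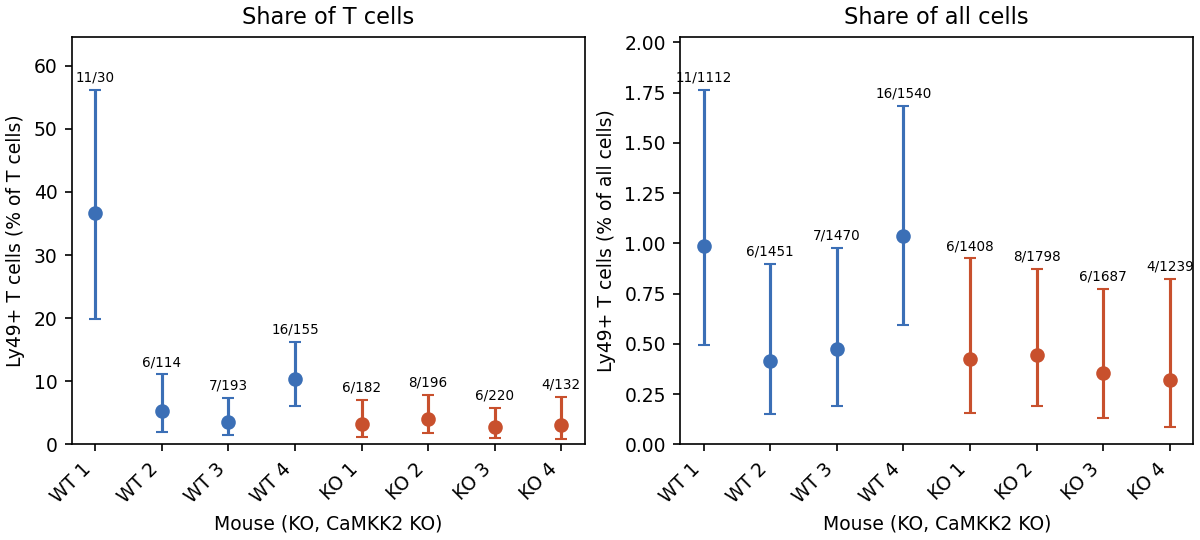
Ly49+ T cells as a percentage of T cells (left) and of all cells (right) in each of 4 WT and 4 CaMKK2 KO mice, with exact 95% binomial intervals and the cell counts above them. WT mice 1 and 4 sit highest in both panels, and the other 6 mice lie between 2.73 and 5.26% of T cells.

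Against the other T cells of the same mice, the Ly49+ T cells had higher levels of several genes of naive and stem-like cells and of Klrb1c, and lower levels of checkpoint receptors, of Ifng, Ccl3 and Ccl4, and of some tissue-homing receptors. In 7 mice with at least 5 cells in both populations, 9541 genes were tested on UMI sums per mouse with edgeR's quasi-likelihood test, the mouse as a block and Benjamini-Hochberg adjustment. At an adjusted p under 0.05, 274 genes (2.87%) were called, 63 higher (0.66% of the genes tested) and 211 lower (2.21%) in Ly49+ T cells. Of these, 25 were higher and 148 lower in every one of the 7 mice. Without both barcodes that stand apart, edgeR called 636 of 9403 genes (6.76%), 172 higher (1.83%) and 464 lower (4.93%), DESeq2 called 300, and 251 of the 274 kept their call and direction in the edgeR fit. In that fit edgeR gave every gene the same quasi-likelihood spread (infinite prior degrees of freedom), so its p-values are not printed. The same held for the fits without both barcodes against NK cells and for the interaction of genotype and population.

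Among the genes that rose in every mouse, Klrb1c, which encodes the NK receptor NK1.1, stood at 126, 334, 208 and 96.9 CPM in the Ly49+ T cells of WT mice 1 to 4 and 239, 58, 60.2 and 143 in those of CaMKK2 KO mice 1 to 4. In other T cells it stood at 83.4, 23.6, 3.76 and 18 and 16.5, 3.8, 51.1 and 5.47. The populations overlapped between mice, since other T cells of WT mouse 1 stood above the members of CaMKK2 KO mice 2 and 3, but the members were the higher in each mouse (log2 fold change 2.83 ± 0.48 (SE), adjusted p = 8.53e-04). Klhdc2, a substrate receptor of a ubiquitin ligase, rose from 42.7 ± 10.2 to 212 ± 80.9 CPM (SD, n = 7) and was higher in all 7 mice (log2 fold change 2.26 ± 0.27 (SE), adjusted p = 2.71e-05). Txk, a Tec-family kinase of lymphocytes, rose from 93.7 ± 23.5 to 329.6 ± 129.7 CPM (log2 fold change 1.74 ± 0.28 (SE), adjusted p = 4.58e-04). Cd7, Klrb1a and Atp1b1 were left out of the test, and the other genes that led by fold change among those higher in every mouse were Cxxc5 (log2 fold change 3.18), Tanc1 (2.89), Mast4 (2.86), Treml2 (2.44), Fgf13 (2.21), Ttc28 (2.14) and N4bp2 (1.69), and E2f1, a cell-cycle factor, rose from 12.1 ± 5.81 to 46.7 ± 26.3 CPM. The value of Mast4 was 1.94 without both barcodes that stand apart. Fgf13, Ttc28 and N4bp2 lost their calls when one or another mouse was left out. Some called genes had larger fold changes without a rise in every mouse, such as Col3a1 (8.92) and Sox9 (7.73), whose UMIs in the members of the 7 mice were all in CaMKK2 KO mouse 3.

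Several genes of naive and stem-like T cells rose. Of 10 such genes tested, 4 rose and none fell, with a median log2 fold change of 0.89 beside -0.07 over all genes, and 6 rose without both barcodes that stand apart. Of the 4, Lef1 and Id3 lost their calls when 1 mouse was left out. Tcf7 and Klf2 lost theirs in cells alike in coreceptor, described below, where fewer genes and mice remained. Tcf7, which encodes TCF-1, a factor that maintains naive and memory T cells, stood at 117, 209, 208 and 279.8 CPM in the members of WT mice 1 to 4 and 143, 174, 28.1 and 47.7 in those of CaMKK2 KO mice 1 to 4 (log2 fold change 1.72 ± 0.27 (SE), adjusted p = 4.21e-04). Its levels in other T cells were between 12.1 and 88.4 CPM. The members of the 4 WT mice and of CaMKK2 KO mice 1 and 2 lay above every value of other T cells, and those of CaMKK2 KO mice 3 and 4 lay within their range. Without the barcode that stands apart, the members of CaMKK2 KO mouse 3 stood at 126 CPM, above that range. Klf2, a factor of quiescent T cells, had a log2 fold change of 1.29, and Lef1, a relative of TCF-1, 1.37. The log2 fold change of Lef1 was -0.42 in cells with neither coreceptor of the 4 WT mice and the call was lost without WT mouse 4. Id3, an inhibitor of E proteins, had a log2 fold change of 2.60, or 1.83 without both barcodes that stand apart, and was higher in 5 of 7 mice. Its level in CaMKK2 KO mouse 3 was 153 CPM with that mouse's barcode and 25.3 without it. Il7r, the interleukin-7 receptor, did not pass, at 306 ± 153 CPM in members and 339 ± 103 in other T cells (adjusted p = 0.801). Of 11 genes of memory-like CD8 T cells, 2 rose (Eomes and Ly6c2) and 2 fell (Ly6a and Cd44, at log2 fold changes of -1.99 and -1.03). Ly6c2 rose from 573 ± 218 to 1708 ± 994 CPM (log2 fold change 1.38 ± 0.32 (SE), adjusted p = 0.0148). Eomes, a T-box factor of memory and NK cells, rose from 10.5 ± 6.37 to 58.1 ± 42.5 CPM (log2 fold change 2.19 ± 0.53 (SE), adjusted p = 0.0202). Eomes was not called without WT mouse 3, CaMKK2 KO mouse 1 or CaMKK2 KO mouse 2, Ly6c2 without WT mouse 1, 2 or 4 or CaMKK2 KO mouse 1, and Cd44 without WT mouse 1, 2 or 4. Without both barcodes that stand apart, 4 of these 11 rose and 2 fell.

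Several checkpoint receptors and other genes of exhausted T cells fell. Of 12 tested, 7 fell and none rose, with a median log2 fold change of -2.71. Pdcd1 (PD-1) stood at 17.9, 13.9, 0 and 16.1 CPM in the Ly49+ T cells of WT mice 1 to 4 and 0, 139, 0 and 47.7 in those of CaMKK2 KO mice 1 to 4, and in other T cells at 219 to 398. The populations did not overlap in any mouse (log2 fold change -3.92 ± 0.52 (SE), adjusted p = 6.59e-05). Havcr2 (TIM-3) fell (log2 fold change -3.89), Ctla4 (-3.36), Lag3 (-3.32), and Entpd1 (CD39) (-3.17). Over all 64 members, Pdcd1 had 20 UMIs, Havcr2 6, Ctla4 37, Lag3 33 and Entpd1 10. These genes therefore passed the filter on low counts, of 50 UMIs, through the other T cells alone. Tox, a driver of the exhausted state, fell from 136 ± 74 to 29.3 ± 15 CPM (log2 fold change -2.26 ± 0.44 (SE), adjusted p = 0.00332). Cd160 went the other way without passing, at 191 ± 104 CPM in members and 64 ± 27.7 in other T cells (adjusted p = 0.0669), and was called higher without both barcodes that stand apart, beside the same count of 7 lower.

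Of 13 cytokine and chemokine genes, 6 fell and 1 rose. Of the 6, Ccl1, Csf2 and Il10 passed the filter on low counts through the other T cells alone and could only have been called lower. Ifng, which encodes interferon-gamma, fell in all 7 mice, from 304 ± 186 to 62.2 ± 48.2 CPM (log2 fold change -2.42 ± 0.27 (SE), adjusted p = 1.27e-05). Ccl4 and Ccl3, chemokines of activated effector cells, fell (log2 fold changes -3.04 and -2.75). Ccl1, Csf2 and Il10 had no UMI in the Ly49+ T cells of the 7 mice. With 3 UMIs over the 7 mice as the limit, they were at least 26.1-fold, 11.6-fold and 5.08-fold lower. Xcl1, a chemokine that attracts cross-presenting dendritic cells, was the 1 that rose. It stood at 152, 348, 306 and 764 CPM in WT mice 1 to 4 and 733, 591, 72.3 and 215 in CaMKK2 KO mice 1 to 4, against 28.5 to 177 in other T cells (log2 fold change 1.86 ± 0.38 (SE), adjusted p = 0.00505). CaMKK2 KO mouse 3 was the only mouse of the 7 without a rise, but stood at 379 CPM without the barcode that stands apart, which held most of its UMIs. The genes that fell furthest were all without a UMI in the members of the 7 mice tested. They too passed the filter on low counts through the other T cells alone and could only have been called lower. Cd4 was at least 32.4-fold lower, Igfbp7 20.0-fold, Penk, which encodes proenkephalin, 15.2-fold, Gldc 8.91-fold, Il1r2, a decoy receptor for interleukin-1, 8.72-fold, Zbtb32 8.01-fold and Ltb4r1 7.25-fold.

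Of 9 chemokine and sphingosine receptors, which guide T cells into and out of tissues, 3 fell and none rose, namely Cxcr6 (log2 fold change -3.17), Ccr2 (-2.01) and Cx3cr1 (-1.62). With both barcodes that stand apart left out, these 3 fell and 3 rose, S1pr1, Cxcr4 and Cxcr3. With all members, Ccr2 and Cx3cr1 were not called when one or another mouse was left out. Of 10 cytotoxic effector genes, 5 fell, among them Gzmk (-3.50), Prf1, which encodes perforin (-2.31), Cst7 (-1.22) and Nkg7 (-0.97), and none rose. Gzmk had 3 UMIs in the members, all in 1 cell, and passed the filter on low counts through the other T cells alone. Nkg7 was not called without WT mouse 4, and its log2 fold change was 1.54 in cells with neither coreceptor of the 4 WT mice. In the edgeR fit without both barcodes that stand apart, 7 of the 10 fell, Gzma among them, and Ctsw, which encodes cathepsin W, rose. Gzmb did not pass, at 623 ± 529 CPM in members and 880.3 ± 542 in other T cells (adjusted p = 0.382). None of 8 tissue-residency genes passed. Of 5 genes of NKT and innate-like T cells, 3 fell, Slamf1 (-2.52), the costimulator Icos (-2.33) and Plac8 (-1.34). Slamf1 and Plac8 lost their calls when 1 mouse was left out, and Icos in cells alike in coreceptor. Slamf1 had 5 UMIs in the members and also passed the filter on low counts through the other T cells alone. Of 8 CD8 regulatory-type genes, Il10, which could only have been called lower, and Icos fell. Ikzf2 did not pass, at 556 ± 297 CPM in members and 259.9 ± 113 in other T cells (higher in 6 of 7 mice, adjusted p = 0.105), and was called higher without both barcodes that stand apart.

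Of 13 genes of the T-cell receptor complex and its proximal signalling, 4 fell and none rose. These were Cd6 (log2 fold change -2.10) and Cd5 (-1.68), which restrain receptor signalling, the costimulator Cd28 (-1.23) and the adaptor Lat (-1.16). All 4 were lower in all 7 mice. Cd8a and Cd8b1 fell (log2 fold changes -2.51 and -3.20). Of 9 NKG2 and NKR-P1 receptor genes, Klrb1c rose and Klrc1, which encodes the inhibitory NKG2A, fell (-1.55). Klrd1 and Klrk1, which encode CD94 and NKG2D, did not pass. Neither did any of 9 NK receptor adaptor and signalling genes. Fcer1g, the Fc receptor gamma chain, was at 629 ± 258 CPM in members and 355 ± 145 in other T cells (adjusted p = 0.118), and it was called higher without both barcodes that stand apart. Of 15 transcription factor genes, Id3 and Eomes rose, and Irf8 (-2.02), Zeb2 (-1.78), Bcl11b (-1.14) and Id2 (-0.90) fell. Of 8 gamma-delta T-cell genes, Trgc4 rose (log2 fold change 2.06) and Maf fell (-2.95). Il2ra and Il10ra fell among 12 cytokine receptors (log2 fold changes -2.89 and -1.75). None of 11 type I interferon response genes passed. Stmn1 rose among 10 cell-cycle genes (log2 fold change 1.11), and its call was lost when 1 mouse was left out. Its level in CaMKK2 KO mouse 3 was 502 CPM with that mouse's barcode that stands apart and 228 without it.

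Markers of other cells moved too. Lyz2 and Csf1r, genes of macrophages, fell (log2 fold changes -2.49 and -2.09), as did Cd74 and H2-Aa of antigen-presenting cells (log2 fold changes -3.59 and -3.08). The summed level of the 8 macrophage genes, given above, was also the lower in the members of 7 of the 8 mice, the exception being WT mouse 3, and its part in the other differences was not tested. Because the populations held different shares of CD4 and CD8 cells, the comparison was repeated in cells alike in coreceptor. Among cells with neither coreceptor, 4 mice remained, all of them WT and WT mouse 3 with its barcode that stands apart, and 82 of 2003 genes were called (15 higher, 67 lower). Without that barcode 127 of 1900 were called (23 higher, 104 lower). Among cells with a CD8 and no Cd4 UMI, 2 mice remained and 62 of 4203 were called (11 higher, 51 lower). In cells with neither coreceptor Lef1, Trgc4 and Nkg7 turned direction, at log2 fold changes of -0.42, -0.45 and 1.54, and at -0.32, -0.32 and 1.60 without that barcode.

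**Figure D3:**
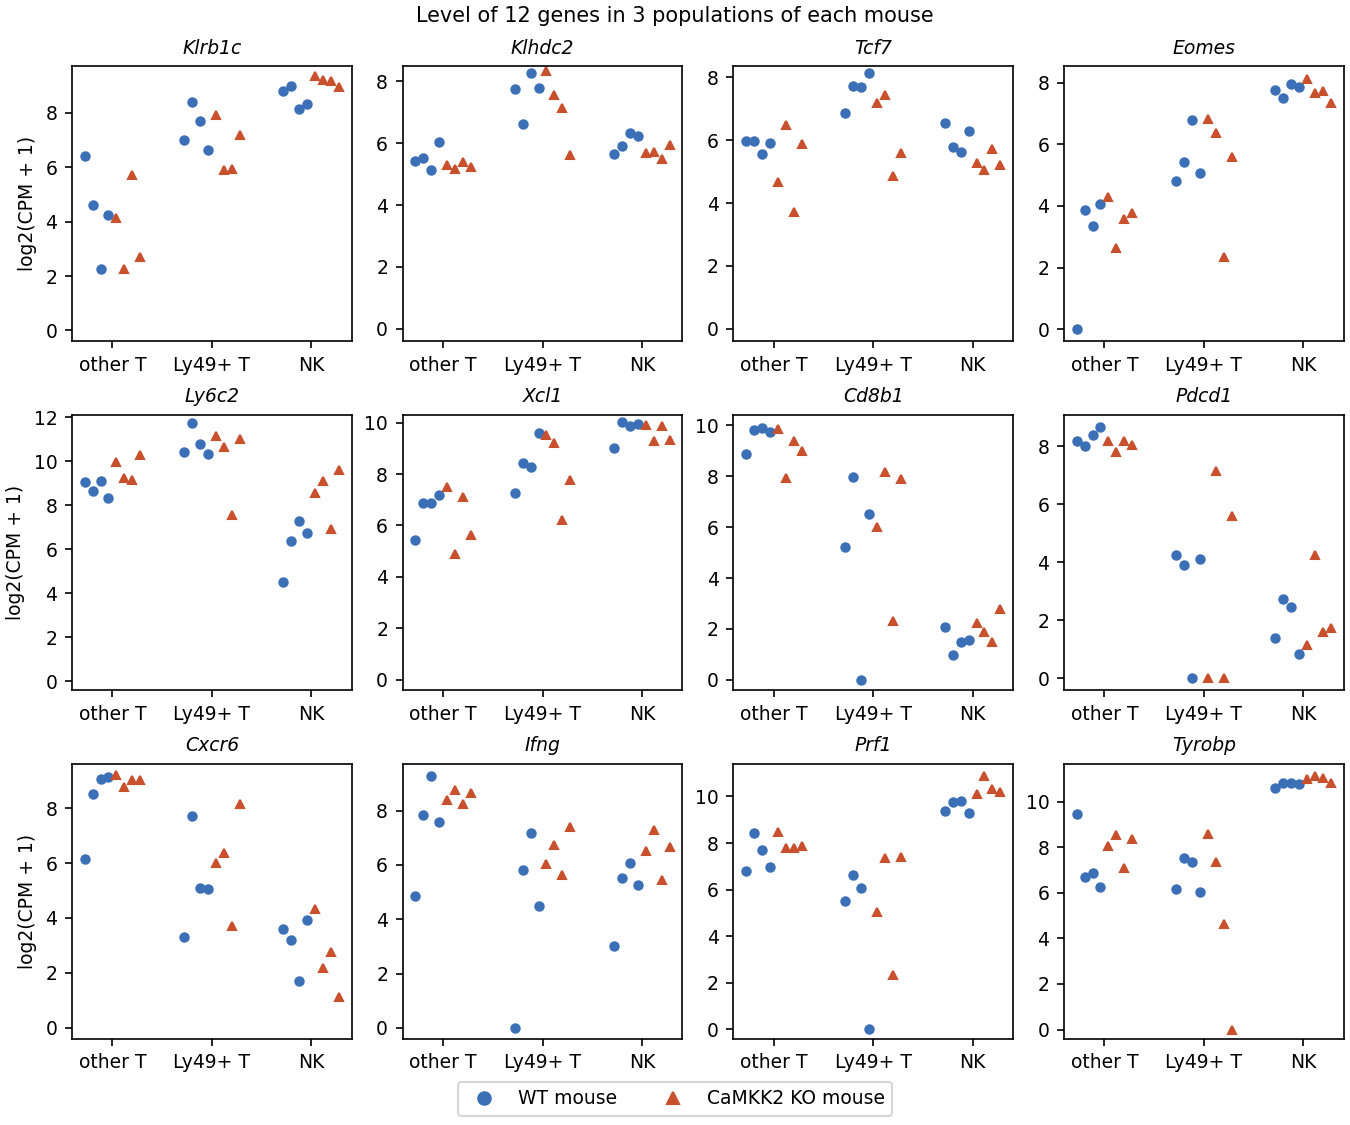
Level of 12 genes, as log2 of CPM plus 1, in other T cells, Ly49+ T cells and NK cells of each of 4 WT mice (circles) and 4 CaMKK2 KO mice (triangles), 1 point per mouse. Pdcd1 in Ly49+ T cells lies below every value of other T cells, Tyrobp and Prf1 lie below every NK value, and the low triangle of Tcf7, Ly6c2 and Cd8b1 is CaMKK2 KO mouse 3.

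Against NK cells, the members had higher levels of T-cell genes and lower levels of cytotoxic and NK receptor genes. In the same 7 mice, 394 of 9940 genes (3.96%) were called, 148 higher (1.49% of the genes tested) and 246 lower (2.47%) in Ly49+ T cells (edgeR's quasi-likelihood test, Benjamini-Hochberg). Without both barcodes that stand apart, edgeR called 797 of 9843 genes (8.1%), 346 higher (3.52%) and 451 lower (4.58%), and DESeq2 called 459. With TMM factors, which moved the median of all genes from -0.02 to -0.28, 593 were called, 111 higher and 482 lower. Among the called genes that were higher in every mouse, the highest by fold change was Trgc2, a gamma constant gene, from 0.16 ± 0.21 to 95.2 ± 57.9 CPM (log2 fold change 8.19 ± 0.57 (SE), adjusted p = 1.63e-10). With 3 UMIs in all NK cells, it passed the filter on low counts through the members alone and could only have been called higher. Trgc2 was detected in 25 of 64 members and also in 23.7% of other T cells. Bcl11b, a factor of T-lineage commitment, rose from 1.49 ± 0.843 to 80.1 ± 44 CPM (log2 fold change 5.42 ± 0.52 (SE), adjusted p = 4.38e-08). Cd3g, a CD3 chain that the definition did not use, rose from 18.9 ± 3.79 to 725 ± 414 (log2 fold change 4.99 ± 0.32 (SE), adjusted p = 5.22e-11). Ikzf2 stood at 287, 612, 656 and 786 CPM in the members of WT mice 1 to 4 and 478, 974, 96.4 and 262 in those of CaMKK2 KO mice 1 to 4, against 18.3 to 53.5 in NK cells. The populations did not overlap (log2 fold change 3.94 ± 0.28 (SE), adjusted p = 2.02e-10). Il7r rose by a log2 fold change of 3.74, Ly6c2 by 3.30, the cytokine receptor chain Il6st by 3.23, the kinase Camk4 by 2.94, Trbc2 by 2.82, Dpp4 (CD26) by 2.79, Actn1 by 3.39 and Mast4 by 3.35. When both barcodes that stand apart were left out, Actn1 rose by 2.23 and Mast4 by 2.43, and the level of Actn1 went from 372 to 46.7 CPM in WT mouse 3 and from 157 to 0 in CaMKK2 KO mouse 3.

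Of 12 cytotoxic effector genes tested against NK cells, 9 fell and none rose (10 fell without both barcodes that stand apart). The definition limited Gzmc and Gzmf in the members and not in NK cells, which favours low cytotoxic genes in the members. Against the 876 of 1349 NK cells under the same limit, 504 of 8468 genes (5.95%) were called, 152 higher (1.79%) and 352 lower (4.16%), and 7 of 9 cytotoxic genes fell, among them Gzma (log2 fold change -6.08) and Prf1 (-4.03). With all NK cells, Gzma stood at 0, 27.8, 601 and 10.8 CPM in the Ly49+ T cells of WT mice 1 to 4 and 128, 325, 120.5 and 23.9 in those of CaMKK2 KO mice 1 to 4, whereas NK cells ranged from 2467 to 11929.5. All members lay below all NK values (log2 fold change -5.50 ± 0.41 (SE), adjusted p = 3.58e-10). Prf1 (log2 fold change -4.57) and Gzmb (-2.28) fell as well. Gzmd, Gzme and Gzmg had no UMI in the members and were at least 222-fold, 83.6-fold and 41-fold lower, but they are neighbours and close relatives of Gzmc and Gzmf, on which the definition set an upper limit. Of the other genes that fell furthest, also without a UMI in the members of the 7 mice tested, Khdc1a was at least 18.1-fold lower, Klrg1, an inhibitory receptor of mature NK cells, 17.5-fold, Tmsb15a 16.3-fold, Serpinb9b 11.3-fold and Zbtb32 10.0-fold. All of these, and Gzmd, Gzme and Gzmg, passed the filter on low counts through NK cells alone and could only have been called lower. All 7 NK-cell marker genes tested fell, with a median log2 fold change of -2.26, and so did 7 of 10 receptor adaptor and signalling genes. The definitions required an Ncr1 UMI in NK cells and none in the members. Lower levels of genes expressed with Ncr1 are therefore close to the definition. Tyrobp fell from 1898 ± 227 to 150.0 ± 119 CPM (log2 fold change -3.99 ± 0.30 (SE), adjusted p = 3.62e-10), Sh2d1b1 (-3.31), Syk (-2.31) and Lat2 (-2.28). Sh2d1b1 and Syk had 5 UMIs each in the members and Lat2 27, and they passed the filter on low counts through NK cells alone. Of 11 NKG2 and NKR-P1 receptors, 6 fell, Klrg1, Klri2 (-4.89), Klrb1b (-4.70), Klrb1f (-3.13), Klrb1c and Klre1. Of these, Klrg1 could only have been called lower, as stated above. Klri2 had 4 UMIs in the members, Klrb1b 7 and Klrb1f 15, so these genes also passed the filter on low counts through NK cells alone. Klrd1 and Klrk1 did not pass, but both were called lower than in NK cells under the same limit. For Klrk1, 593 ± 368 CPM in members stood beside 726 ± 74.7 in NK cells (adjusted p = 0.33).

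T-cell genes were higher than in NK cells, which were defined by few UMIs of Cd3d, Cd3e and Trac, so the higher levels of genes expressed with these are close to the definition. Of 12 genes of the T-cell receptor complex, 6 rose, among them Cd3g, Trbc2, Cd5 (log2 fold change 4.83) and Lat (1.72), and none fell (10 rose without both barcodes that stand apart). Of 10 naive and stem-like genes, 7 rose and none fell, among them Id3 (4.09), Il7r, S1pr1, which guides exit from tissue (3.72), and Slamf6 (2.01). Against NK cells under the same limit on Gzmc and Gzmf, 3 of these 10 rose (Id3, Il7r and S1pr1), and so did 7 of 9 cell-cycle genes. This fit kept both barcodes that stand apart. In CaMKK2 KO mouse 3, Cdk1 was 197 CPM with its barcode and 0 without, and Top2a 241 and 25.3. In WT mouse 3 both were higher without its barcode. The limit took NK cells of WT mouse 3 from 146 with 2197691 UMIs to 86 with 634765, and its part in the cell-cycle count was not tested. Cd8a and Cd8b1 rose by 5.15 and 4.89. Of 15 transcription factors, 3 rose (Bcl11b, Id3 and Ikzf2) and 6 fell, among them Irf8 (-3.94) and Eomes (-2.26), so that Eomes in the members lay between its levels in other T cells and NK cells. Of 9 chemokine and sphingosine receptors, S1pr1, Cxcr6 and Cxcr3 rose and Ccr2 fell. Of 12 cytokine receptors, 2 rose (Il7r and Il21r) and 2 fell (Il10ra and Il2rb). Of 8 cytokines and chemokines, 3 fell, Ccl1, Ccl4 and Xcl1 (-1.26). Ccl1 had no UMI in the members, passed the filter on low counts through NK cells alone and could only have been called lower. Among 12 checkpoint genes, Cd160 rose and Cd244a fell, and among 11 interferon response genes Rtp4 and Bst2 rose. Of 6 gamma-delta genes, Trgc2, Trgc1 (log2 fold change 4.64) and Trgc4 (2.27) rose and Trdv4 fell. Trgc2 could only have been called higher, as stated above, and Trgc1 had 20 UMIs in NK cells and 39 in the members. Trdv4 had 1 UMI in the members and passed the filter on low counts through NK cells alone. Slamf6 rose among 5 genes of innate-like T cells, and Rgs1 and Itga1 fell among 5 tissue-residency genes. Of 7 CD8 regulatory-type genes, Ikzf2 rose and Tgfb1, Fasl and Il2rb fell, and Cdk1 rose among 10 cell-cycle genes. The call of Cdk1 was lost when 1 mouse was left out. Lyz2 of macrophages was again lower in the members. Sparc was called higher in the members, but was not tested once both barcodes that stand apart were left out, for want of UMIs. The members of each comparison are the same cells, so the comparisons with other T cells and with NK cells are not independent.

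**Figure D4:**
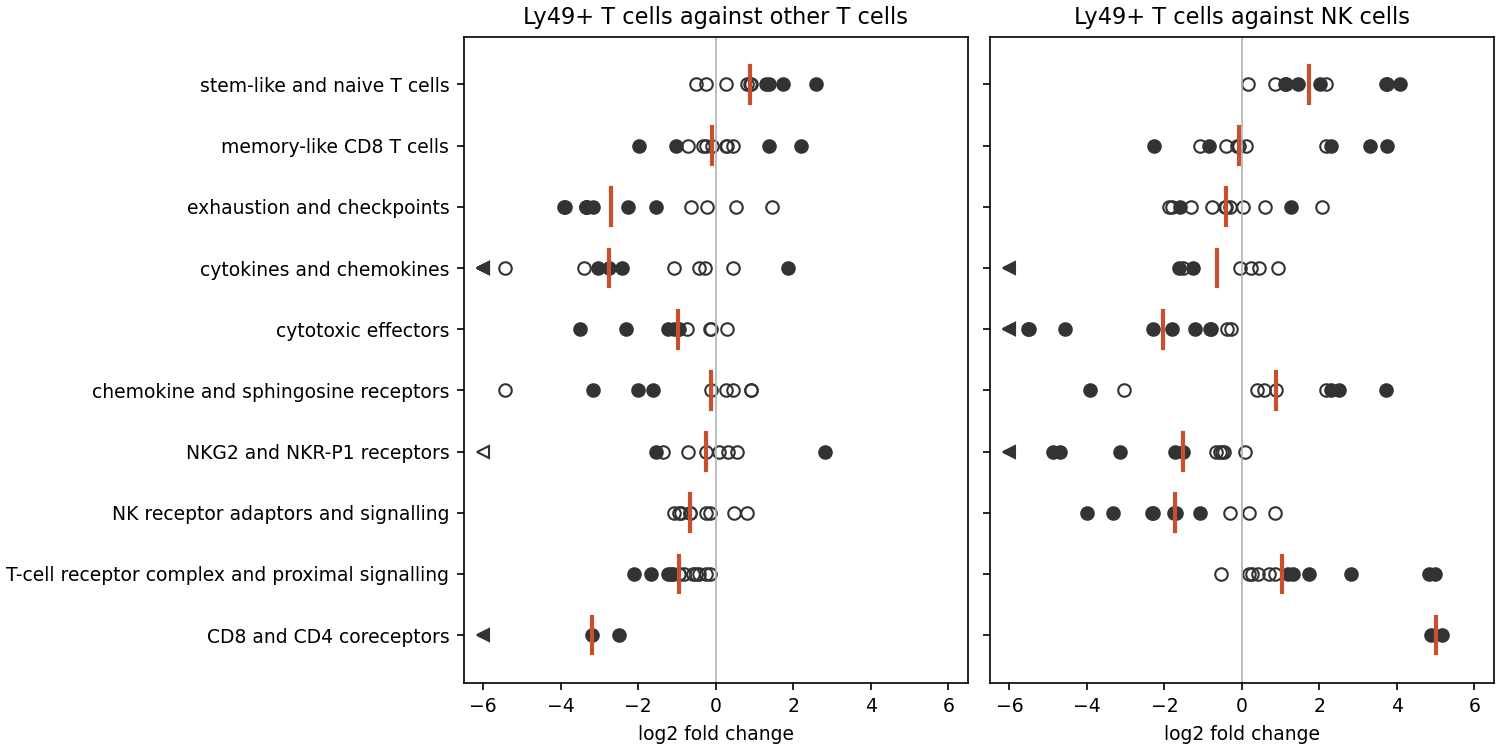
Log2 fold change of every tested gene in 10 lists, for Ly49+ T cells against other T cells (left) and against NK cells (right). Filled symbols passed an adjusted p of 0.05, the vertical bar is the median of the list, and triangles at the edge are genes beyond 6 on either side. Naive and stem-like genes lie mostly right of 0 in both panels, checkpoint genes mostly left of 0 in the left panel, and cytotoxic genes and receptor adaptors mostly left of 0 in the right panel.

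Between genotypes, Camkk2 itself was read first. Summed over every assigned cell, its level was 27.3, 28.3, 35.8 and 27.5 CPM in WT mice 1 to 4 and 14, 17, 13.1 and 22.4 in CaMKK2 KO mice 1 to 4, lower in every CaMKK2 KO mouse but not absent. Reads near the end of a transcript need not cover a deleted part, so this shows the direction of the labels and no more. In the Ly49+ T cells it was too rare to read, with 5 UMIs in 40 WT cells and 7 in 24 CaMKK2 KO cells, 6 of these in mouse 3, all in its barcode that stands apart.

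In the Ly49+ T cells of 4 WT and 3 CaMKK2 KO mice, 2 of 2475 genes (0.0808%) were called, both lower in CaMKK2 KO (edgeR's quasi-likelihood test, Benjamini-Hochberg). An unadjusted p under 0.05 was reached by 192 genes, and DESeq2 called 5. Gm2682, annotated as a long intergenic non-coding RNA of unknown function (GENCODE M21, GRCm38, chr15:60120540-60187408, minus strand), stood at 179, 236, 219 and 188 CPM in WT mice 1 to 4 and at 0 in all 4 CaMKK2 KO mice. It passed the filter on low counts through the WT mice alone and could only have been called lower in CaMKK2 KO. Over the mice tested it was at least 26.5-fold lower (adjusted p = 0.017), with 3 UMIs over the CaMKK2 KO mice tested as the limit. The members of these mice held 398051 UMIs, of which 209483 were in the barcode of CaMKK2 KO mouse 3 that stands apart. Without that barcode the bound would be smaller, and it was not recomputed. Apoe (chr7:19696109-19699188, minus strand), which encodes apolipoprotein E, a lipid carrier abundant in macrophages, stood at 332, 306, 295 and 274 CPM in the WT mice and at 15.9, 0, 24.1 and 0 in the CaMKK2 KO mice (log2 fold change -4.14 ± 0.55 (SE), adjusted p = 0.0309). For both genes the genotypes did not overlap. Neither call remained when any 1 WT mouse was left out. After both barcodes that stand apart were removed, 4 of 1711 genes (0.234%) were called by edgeR, 1 higher (0.0584%) and 3 lower (0.175%) in CaMKK2 KO, and 4 by DESeq2. In the edgeR fit these were Gm2682, Apoe and Gm47283 lower, and Wls, which carries Wnt proteins to the cell surface, higher. Wls stood at 71.7, 55.6, 54.7 and 26.9 CPM in the WT mice and 319, 579.6, 205 and 382 in the CaMKK2 KO mice, all above the WT values (with both barcodes, log2 fold change 2.82 ± 0.48 (SE), adjusted p = 0.166). Gm47283 had a log2 fold change of -5.13 without both barcodes and of -0.91 with them (adjusted p = 0.823). With its barcode that stands apart, CaMKK2 KO mouse 3 stood at 273 CPM, within the WT range of 131 to 306, and without it at 0.

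The same genes were read in the other populations. In other T cells Gm2682 stood at 97.3, 50.1, 39.2 and 62.5 CPM in WT mice 1 to 4 and 0, 1.43, 0.866 and 0.912 in CaMKK2 KO mice 1 to 4. Wls in other T cells stood at 27.8, 37.3, 40.8 and 37.5 CPM and 377, 193, 343 and 282 CPM. In NK cells the genotypes did not overlap for either gene. Apoe in other T cells stood at 313, 593, 410.2 and 414 CPM and 56, 49, 324 and 26.4 CPM, where CaMKK2 KO mouse 3 lay within the WT range. Apoe in macrophages stood at 35030.4, 25678, 25301 and 28313 CPM in the WT mice and 2631, 1221, 4093 and 1258 in the CaMKK2 KO mice, where the genotypes did not overlap either. The part of macrophage RNA in the Apoe level of Ly49+ T cells was not tested. Gm2682 in macrophages was at most 0.205 CPM. The definition used Klra1, Klra6 and Klra7, so their levels by genotype are a description. Klra7 was 458 ± 97.5 CPM in WT and 476 ± 352 in CaMKK2 KO (SD, n = 4 and 3), Klra1 132 ± 55 and 169 ± 134, and Klra6 122 ± 72.4 and 129 ± 107.

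**Figure D5:**
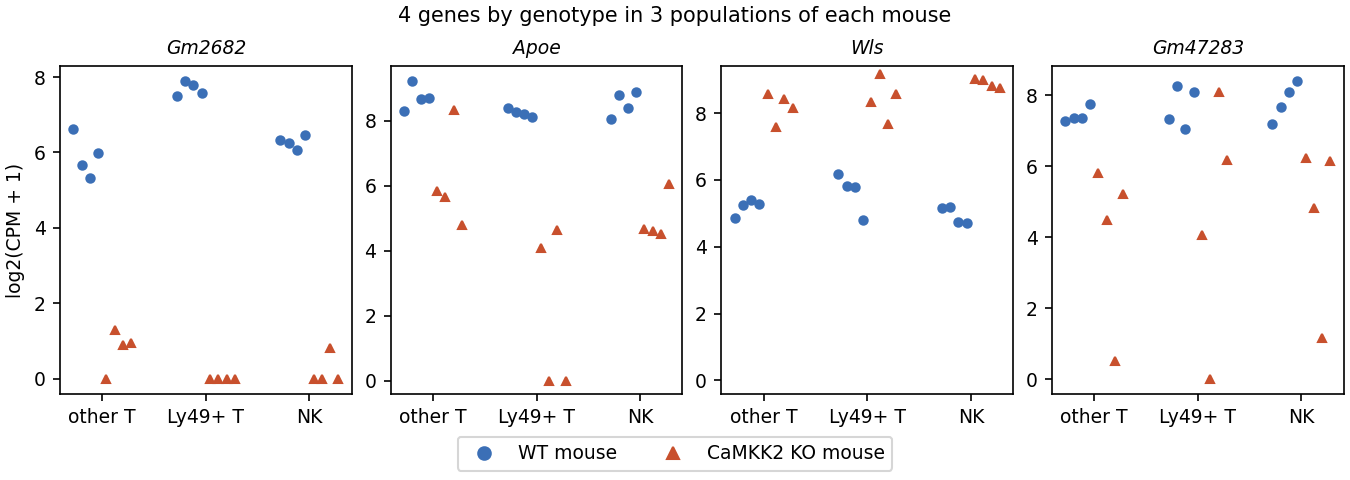
Level of Gm2682, Apoe, Wls and Gm47283, as log2 of CPM plus 1, in other T cells, Ly49+ T cells and NK cells of each WT mouse (circles) and CaMKK2 KO mouse (triangles). Gm2682 is at 0 in the Ly49+ T cells of all 4 CaMKK2 KO mice, and for Gm2682, Apoe and Wls the genotypes do not overlap in Ly49+ T cells.

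Gzma, Gzmb and Stat3 were not called between genotypes by edgeR. Gzma was 160.0 ± 295 CPM in WT and 191 ± 116 in CaMKK2 KO (log2 fold change 0.28 ± 1.26 (SE), adjusted p = 0.963). WT mouse 3 stood at 601.5 CPM, of which the barcode with dendritic cell genes held most. With neither of the barcodes that stand apart, Gzma stood at 0, 27.8, 15.6 and 10.8 CPM in WT mice 1 to 4 and 128, 325, 101 and 23.9 in CaMKK2 KO mice 1 to 4. CaMKK2 KO mice 1 to 3 then lay above every WT mouse and mouse 4 within the WT range, and the gene had too few UMIs for this test. Without WT mouse 3 its log2 fold change was 3.97 (adjusted p = 0.582). Gzmb was 504 ± 371 and 782 ± 752 (adjusted p = 0.873), and Stat3 196 ± 112 and 99.3 ± 69.9 (adjusted p = 0.704). Tox stood at 44.8, 13.9, 32.8 and 43.1 CPM in the WT mice and 31.9, 34.8, 4.02 and 23.9 in the CaMKK2 KO mice, Pdcd1 is given above, and Ifng stood at 0, 55.6, 142 and 21.5 and 63.8, 104, 48.2 and 167. These 3 genes had fewer than 50 UMIs in the 7 mice compared and were not tested. Cd4 was at 0 in all 8 mice, and Cd40lg, the CD40 ligand, was detected in 2 of 64 cells. At this depth only large differences could be seen: in simulated counts of this comparison, 6.52% of genes changed by 1 on the log2 scale were called, and 62.5% of those changed by 2. The simulated spread depended on the level of a gene alone, with no barcodes that stand apart, so real differences may be called less often.

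Whether the genotypes differed in another way in Ly49+ T cells than in other T cells was tested for 9541 genes. With all members, 2 genes were called (0.021%), Ccl17 and Ccl22, chemokines of mature dendritic cells (adjusted p = 0.0183 for both). Ccl22 stood at 798 CPM in the members of WT mouse 3 and at 0 in those of the other 7 mice, and so rested on the 1 barcode with dendritic cell genes. Ccr7 (adjusted p = 0.0712), Lyz2 and Apoe (adjusted p = 0.13 for both) had the next smallest p and did not pass. Without both barcodes that stand apart, edgeR called 11 of 9403 genes (0.117%), with 7 differences higher (0.0744%) and 4 lower (0.0425%) in Ly49+ T cells, and DESeq2 called 0 (157 at an unadjusted p under 0.05). The 7 were Dapl1, Ifitm1, Gzma, Ccl4, Cd8a (a difference of 1.77 on the log2 scale), Ctla2a and Klrk1, and the 4 were Ifi44, Hist1h2ap, Ly6c2 and the macrophage gene Lyz2 (-2.38). With all members, Dapl1 stood at 191 CPM in CaMKK2 KO mouse 1 and at 0 in CaMKK2 KO mice 2 to 4. Ifitm1 stood at 2272 CPM in CaMKK2 KO mouse 2 and at 63.8, 4.02 and 286 in CaMKK2 KO mice 1, 3 and 4. Gzma had a difference of 3.23 on the log2 scale by edgeR and 3.30 by DESeq2 (adjusted p = 0.605), against 1.00 with all members (adjusted p = 1 by edgeR).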

How the data were processed

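Tumor-infiltrating CD45+ cells of 4 WT and 4 CaMKK2 KO mice were profiled by 10x droplet single-cell RNA-seq with hashtag antibodies. The authors deposited unfiltered UMI counts per gene, hashtag and barcode for the barcodes called as cells (6689 WT, 7271 CaMKK2 KO). Per the submitters' processing notes, bcl2fastq 2.20, Cell Ranger 4.0.0, STAR 2.7.5c and Seurat were used, with mouse build mm10. Mice were assigned here with HTODemux of Seurat 5.3.0 (positive quantile 0.99), and hashtag doublets and negatives were left out. No other doublet caller was run. NK cells and other T cells were defined by raw UMIs in the same way as the members.

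UMI counts were summed per mouse and population and tested with edgeR 4.0.16 (R 4.3.3; total counts as library size), with the mouse, which is the same animal in both populations, as a block where populations were compared. Mice needed 5 cells in each population, and genes needed 50 UMIs. Between populations, UMIs were counted over both, so a gene with few in the members could pass through the other cells alone. Genes of the definition, the Ly49 family and the proposed markers Cd7, Klrb1a and Atp1b1 entered no test between populations. Shares were compared by exact permutation of mice. Members and gene lists were chosen with earlier results of these data known, and the count of each list is a description. A few genes of these lists are not reported here. Named were the 12 highest and 8 lowest genes by log2 fold change that passed with 1 sign in every mouse, up to 4 members of each list that passed, and Gzma, Gzmb, Tox, Stat3, Pdcd1, Cd4, Cd40lg and Ifng between genotypes. Other genes named were chosen after their values were seen. In counts simulated for the comparison with other T cells, 22.9, 85.1, 87.2 and 100% of genes changed by 1, 2, 3 and 4 on the log2 scale were called, and for that with NK cells 16.7, 65.3, 87.0 and 100%. The simulated counts held no barcodes that stand apart and no spread particular to a gene, so these shares may be too high. Alternatives covered normalization (TMM, DESeq2 1.42.0), filters, definition, depth and mice. Those without single barcodes, in cells with neither coreceptor and with NK cells under the same limit on Gzmc and Gzmf, were chosen after seeing the data.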

Additional observations from a re-analysis of the deposited data

Results flagged for a closer look

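Gzma in the Ly49+ T cells of WT mouse 3, at 601.5 CPM, stood apart from the other 3 WT mice by Dixon's test. Without the barcode with dendritic cell genes, the value of that mouse was 15.6 CPM. It was the 1 value so marked of 23 groups tested, and chance marks about 1 group in 20.

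The difference between genotypes was not the same in Ly49+ T cells as in other T cells for Ccl17 and Ccl22, by the interaction term of the edgeR fit. The CaMKK2 KO effect in Ly49+ T cells less that in other T cells was -13.15 on the log2 scale for Ccl17 and -12.98 for Ccl22. In the Ly49+ T cells of WT mouse 3, which included the barcode with dendritic cell genes, Ccl17 stood at 306 CPM and Ccl22 at 798. Without both barcodes that stand apart Ccl17 was not called by edgeR, and Ccl22 was not tested for want of UMIs.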

How the results depend on the processing

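Against other T cells, 274 genes were called (63 higher, 211 lower), and 432 with TMM factors (58 and 374; median log2 fold change of all genes -0.24), 485 with no filter on low counts (161 and 324), 438 with outlying cells removed (118 and 320), 440 without the deepest barcode (114 and 326), 636 without both barcodes that stand apart, 62 in cells with CD8 and no Cd4 UMI and 82 in cells with neither coreceptor (127 also without both barcodes). The last 3 fits had fewer genes and mice, and those in cells with neither coreceptor held WT mice only. DESeq2 called 209 (69 higher, 140 lower). Leaving out 1 mouse gave 168 (without CaMKK2 KO mouse 1) to 348 (without CaMKK2 KO mouse 3). Without the pairing by mouse as a block, 342 genes were called against other T cells (134 higher, 208 lower) and 554 against NK cells (291 and 263). Against NK cells, 394 genes (148 and 246) became 593 with TMM factors (111 and 482), 713 with outlying cells removed (318 and 395), 709 without the deepest barcode (313 and 396) and 797 without both barcodes (346 and 451), and 279 to 573 when 1 mouse was left out. Nkg7 (1.54, and 1.60 also without both barcodes), Trgc4 (-0.45 and -0.32) and Lef1 (-0.42 and -0.32) turned direction in cells with neither coreceptor, and no other named gene of these comparisons turned. Of the 62 genes named against other T cells, 45 lost their call under at least 1 alternative. When 1 mouse was left out, 23 did (Fgf13, Ttc28, N4bp2, Il10, Eomes, Klrc1, Slamf1, Plac8, Cd28, Lat, Stmn1, Ccr2, Cx3cr1, Il10ra, Cst7, Nkg7, Csf1r, Ly6c2, Cd44, Id3, Lef1, Irf8 and Zeb2). E2f1, Ccl1, Penk, Il1r2, Ltb4r1, Csf2 and Ly6a lost it under another setting, and Txk, Tcf7, Cd8a, Icos, Cd6, Cd5, Il2ra, Ccl4, Havcr2, Lag3, Maf, Cd74, H2-Aa, Lyz2 and Klf2 in cells alike in coreceptor. Of 63 against NK cells, 16 lost their call, Fasl, Il2rb, Syk, Cdk1, Cxcr6, Cd160, Itga1, Rtp4 and Bst2 when 1 mouse was left out and Gzmg, Slamf6, Ccl1, Ccl4, Xcl1, Sparc and Rgs1 under another setting. Without both barcodes that stand apart, the log2 fold changes against other T cells were -1.92 for Cd8a, -2.66 for Lag3, 2.66 for Trgc4, -3.61 for Maf, -3.50 for Slamf1, -2.72 for Zeb2 and -4.06 for H2-Aa. Against NK cells they were -5.53 for Klri2, -3.22 for Syk, 3.41 for Id3 and -6.19 for Gzma. Against NK cells under the same limit on Gzmc and Gzmf, Slamf6 (1.05), Xcl1 (-0.81), Sparc (3.63), Itga1 (-0.10), Rtp4 (0.56) and Bst2 (0.89) lost their calls.

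Between genotypes, 2 genes (0 higher, 2 lower) became 5 with DESeq2 (2 and 3), 205 with no filter (178 higher and 27 lower, most of them opposite to the direction of the 2), 0 at 200 or more UMIs, 5 with C1q UMIs under 5 (2 and 3), 4 with outlying cells removed, 4 without the deepest barcode and 4 without both barcodes by either tool (1 and 3 in each). Leaving out 1 mouse gave 0 (without any 1 WT mouse) to 3 (without CaMKK2 KO mouse 3). Gzma, at 0.28, ranged from -0.32 to 3.97 without 1 mouse. Gzmb, at 0.62, was -1.10 with 3 or more Klra UMIs and -0.45 to 1.20 without 1 mouse. In the interaction, Gzma, at 1.00, was -0.49 with C1q UMIs under 5 and -0.034 to 3.81 without 1 mouse, and 2 called genes became 0 with DESeq2 (195 at an unadjusted p under 0.05), 23 with no filter (10 higher, 13 lower), 0 at 200 or more UMIs, 4 with every mouse (0 and 4), 31 with C1q UMIs under 5 (6 and 25), 21 with outlying cells removed (5 and 16), 19 without the deepest barcode (5 and 14) and 11 without both barcodes (7 and 4; 0 by DESeq2), and 0 to 35 genes with 1 mouse left out (lowest for WT mouse 3, highest for CaMKK2 KO mouse 2). The share of T cells differed by -7.94 points with 3 or more Klra UMIs, and by -14.1 to -3.12 without 1 mouse. The CD8 share differed from other T cells by -41.5 points after thinning, and by -39.2 to -19.7 without 1 mouse. Except where shown, the cause of a change was not tested. With 24 CaMKK2 KO cells in 4 mice, counts between genotypes have the least support.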
